A study of Mus musculus with 20 samples.

Results

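MHC class I molecules display peptides from inside a cell to CD8 T cells, and the genes described here are 10 that build this display, chosen by symbol: H2-K1, H2-D1, B2m, Tap1, Tap2, Tapbp, Psmb8, Psmb9, Psmb10 and Nlrc5. All 10 were found among the 26619 genes of the count table, and all 10 were among the 17893 genes that passed the filter on low counts. RNA came from the distal colon (DC) of 20 C57BL/6 mice, which received the Total Western Diet (TWD, a rodent diet modelled on what the average American eats) from about 3 weeks of age for 6 weeks, and then for 3 more weeks the TWD with 0, 2, 5 or 10% of resistant potato starch (RPS, called raw potato starch in the sample labels). Each diet had 5 mice, every mouse gave 1 library, and all groups shared the TWD, so the 0% RPS mice are Western diet controls and not mice on a standard chow. The diet of each mouse was taken from the sample description. In 3 mice the treatment label names another level, which is 2% in place of 5% for mouse RS10_717, 5% in place of 10% for RS10_725 and 10% in place of 2% for RS10_748.

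A class I molecule is a heavy chain, such as the products of H2-K1 and H2-D1, joined to the light chain beta 2-microglobulin, the product of B2m. Its peptides are cut by the proteasome, whose catalytic subunits can be replaced by the inducible immunoproteasome subunits Psmb8, Psmb9 and Psmb10. They are pumped into the endoplasmic reticulum by the transporter Tap1 and Tap2, and are loaded there with the help of tapasin, the product of Tapbp. Nlrc5 is a transactivator that acts on promoters of class I genes, and interferon gamma, partly through Irf1, is the best known inducer of the pathway. Intestinal epithelial cells and leukocytes both carry class I molecules.

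In GRCm39, 7 of the genes lie in the major histocompatibility region of chromosome 17. Tapbp is at chr17:34134873-34148267, H2-K1 at chr17:34214987-34219321, Psmb9 at chr17:34400960-34406738, Tap1 at chr17:34405996-34416199, Psmb8 at chr17:34416690-34420428, Tap2 at chr17:34422501-34435829 and H2-D1 at chr17:35481691-35486475. B2m is at chr2:121977957-121983594, Nlrc5 at chr8:95160984-95253900 and Psmb10 at chr8:106662362-106665077. H2-K1, Psmb9 and Psmb10 are on the minus strand and the others on the plus strand. The annotated Tap1 and Psmb9 genes overlap by 743 bases on opposite strands.

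The promoters of the genes with the clearest differences, and of the light chain and transporter beside them, are shown because class I genes are known for shared control elements. The windows are RefSeq sequences of 300 bases (250 before and 50 after the start of transcription, the start furthest downstream where RefSeq gives several), found in GRCm39 by exact match and printed 5′ to 3′ on the strand of the gene. Capitals mark 5 short motifs searched on both strands: the interferon response core TGAAACTG, the kappa B site GGGATTCCC, the X2 core TGACG, the CCAAT box CCAAT and the gamma-activated site TTCNNNGAA. The motifs were chosen with the sequences in view, and a match is a run of letters and not a shown binding site.
H2-K1 (chr17:34219258-34219557, minus strand): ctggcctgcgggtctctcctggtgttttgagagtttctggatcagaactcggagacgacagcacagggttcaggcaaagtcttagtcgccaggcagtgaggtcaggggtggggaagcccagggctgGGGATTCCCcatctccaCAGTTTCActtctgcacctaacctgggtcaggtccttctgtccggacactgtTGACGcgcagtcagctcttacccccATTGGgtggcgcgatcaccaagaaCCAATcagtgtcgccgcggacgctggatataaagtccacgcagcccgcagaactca
H2-D1 (chr17:35481820-35482119, plus strand): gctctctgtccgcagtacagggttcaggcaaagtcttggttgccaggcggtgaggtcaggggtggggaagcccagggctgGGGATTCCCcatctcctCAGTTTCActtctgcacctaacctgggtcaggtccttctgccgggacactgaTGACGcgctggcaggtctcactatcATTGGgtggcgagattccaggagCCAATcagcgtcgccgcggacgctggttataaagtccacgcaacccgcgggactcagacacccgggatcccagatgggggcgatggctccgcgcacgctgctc
B2m (chr2:121977918-121978217, plus strand): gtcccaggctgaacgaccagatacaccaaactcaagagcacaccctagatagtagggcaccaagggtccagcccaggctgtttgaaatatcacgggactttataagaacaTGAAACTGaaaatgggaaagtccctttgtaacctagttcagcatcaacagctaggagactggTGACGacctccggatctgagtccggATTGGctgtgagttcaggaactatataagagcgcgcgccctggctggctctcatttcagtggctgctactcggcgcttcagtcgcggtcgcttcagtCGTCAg
Tap1 (chr17:34406280-34406579, plus strand): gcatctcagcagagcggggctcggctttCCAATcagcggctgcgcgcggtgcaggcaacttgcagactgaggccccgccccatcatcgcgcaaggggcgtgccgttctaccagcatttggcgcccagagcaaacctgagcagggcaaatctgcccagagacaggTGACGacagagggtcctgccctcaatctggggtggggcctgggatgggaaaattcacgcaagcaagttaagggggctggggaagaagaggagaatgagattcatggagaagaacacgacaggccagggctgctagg
Psmb8 (chr17:34416919-34417218, plus strand): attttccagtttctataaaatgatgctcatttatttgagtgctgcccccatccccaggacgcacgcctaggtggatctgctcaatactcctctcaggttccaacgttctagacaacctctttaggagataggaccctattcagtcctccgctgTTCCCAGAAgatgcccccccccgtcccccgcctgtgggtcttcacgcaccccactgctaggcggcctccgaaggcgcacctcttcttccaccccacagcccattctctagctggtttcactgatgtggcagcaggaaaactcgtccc

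The windows of H2-K1 and H2-D1 had identical bases at 225 of 253 aligned positions (88.9%) and carried the same series of motifs in the same order, namely the kappa B site, the interferon response core, the X2 core and a pair of CCAAT boxes. B2m held the interferon response core, the X2 core and a CCAAT box in that order, and a second X2 match after the start. RefSeq windows were at hand for 8 of the 10 genes. The interferon response core was in 3 of these 8 (H2-K1, H2-D1 and B2m) and in 1.35% of all 32851 RefSeq mouse promoter windows, and the kappa B site was in 2 of 8 (H2-K1 and H2-D1) against 0.353%. The X2 core was in 5 of 8 against 20.8%, the CCAAT box in 6 of 8 against 37.4%, and the gamma-activated site in Psmb8 alone of the 8 against 8.3%. These shares test no enrichment, because the motifs were chosen with the sequences in view and the H2-K1 and H2-D1 windows are near copies. The windows of Tap1 and Psmb9 share 275 bases read on opposite strands, so their X2 and CCAAT matches are the same letters.

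The libraries held between 18.4 and 35.0 megacounts (M), with 31.3 to 35.0 M at 0% RPS and 18.4 to 26.6 M at 10% RPS, so depth and these 2 diets cannot be told apart. Expression is given as CPM, the count of a gene per megacount of its library after scaling. Distal colon markers were present in every library, with a summed level of 2683 to 4369 CPM over 7 genes, and epithelial markers summed to 8320 CPM or more. Of the distal colon sum, Car1 and Car4 averaged 1301 and 1116 CPM in the controls. For Hoxa13, Hoxb13, Hoxd11, Hoxd12 and Hoxd13 the lowest values at 5% RPS were 51.35, 379.5, 6.83, 1.94 and 54.8 CPM. In the controls the lowest were 45.2, 446, 21.3, 10.7 and 141 CPM. Mouse RS10_721 (5% RPS) stood apart with 4593 CPM of 6 pancreatic genes against at most 720.5 CPM in any other mouse. Much of the sum elsewhere came from Cela1, which every mouse held, and the acinar gene Pnlip reached 1108 CPM in RS10_721, 90.7 CPM in RS10_784 (10% RPS) and at most 2.66 CPM in the other mice. RS10_721 was highest of the 20 mice in 0 of the 10 class I genes and lowest in 0, with a median rank of 11.5 counted from the highest. Its Psmb8, at 19.2 CPM, was the lowest of the 5% RPS mice. These ranks cannot show whether pancreatic RNA lowered its class I values. The trend tests without RS10_784 are given with those of the other single mice, and the part of pancreatic RNA in the class I values was not tested. The samples are whole tissue, in which fewer cells of a type and less RNA per cell cannot be told apart.

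The levels of the 10 genes were compared with each other per length, as CPM per kb of the canonical transcript. H2-K1 was highest with 415 ± 53.2 CPM per kb (SD, n = 20 mice), followed by B2m with 317 ± 54.9 and H2-D1 with 249 ± 24.5. The mRNAs of the heavy chains and of their light chain were the most abundant of the pathway. Tapbp followed with 66.2 ± 5.55 CPM per kb and Psmb10 with 64.5 ± 9.25, and these neighbours were not separated, since Tapbp was the higher of them in 11 of 20 mice. Psmb8 had 16.6 ± 4.12 CPM per kb, Psmb9 11.8 ± 2.28, Tap2 10.6 ± 0.941 and Tap1 8.43 ± 1.55, with Psmb9 above Tap2 in 13 of 20 mice. Nlrc5, a regulator, was lowest with 0.756 CPM per kb. Within the immunoproteasome the subunits therefore differed in level, with Psmb10 above Psmb8 in 20 of 20 mice and Psmb8 above Psmb9 in 19 of 20.

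**Figure D1:**
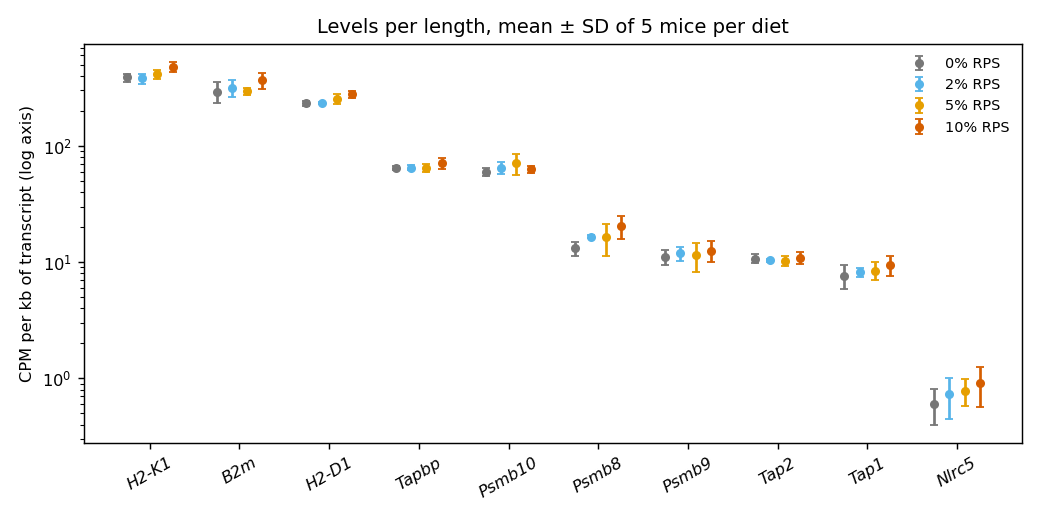
Mean level per length of the 10 genes (vertical log axis, CPM per kb of canonical transcript) in each of the 4 diets, with bars for the SD of 5 mice. H2-K1, B2m and H2-D1 sit above 200 CPM per kb and Nlrc5 below 2 in every diet.

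Each RPS level was compared with the TWD alone. At 10% RPS all 10 genes had positive log2 fold changes (log2FC), with a median of 0.28, while 46.8% of all tested genes had positive values and their median was -0.01. A call required an edgeR adjusted p no larger than 0.05 together with a change of at least 1.5-fold, and none of the 10 was called. For 6 of them the unadjusted p was under 0.05, the level that 2718 of the 17893 tested genes reached. edgeR called 7 genes in all as higher, which is 0.0391% of those tested. DESeq2 called 1 of the 10, Psmb8, against 0.800% of genes called higher by that test. At 5% RPS 9 of the 10 fold changes were positive with a median of 0.11, and at 2% RPS 8 were positive with a median of 0.10. At those levels edgeR and DESeq2 called 0 of the 10. An unadjusted edgeR p under 0.05 was reached by 1 gene at 5% RPS and 0 at 2% RPS, against 1644 and 253 of the 17893 tested genes, and edgeR called 0.00% of all genes as higher at 5% RPS and 0.00% at 2% RPS. The 3 comparisons share the 0% RPS mice.

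A linear trend over the RPS percentage used all 20 mice. H2-K1 and H2-D1 rose with RPS (edgeR), in a fit in which 1.15% of all genes had a rising trend, and the other 8 genes did not pass. The unadjusted p of the trend was under 0.05 for 7 of the 10 genes and for 3420 of the 17893 tested, and DESeq2 gave 3 rising genes, H2-K1, H2-D1 and Psmb8, against 3.44% of all genes. In the edgeR test of any difference among the 4 diets 0 of the 10 passed, against 0.0727% of all genes, and 3 had an unadjusted p under 0.05, which 1892 of all tested genes had. DESeq2 passed 2 of the 10 (H2-K1 and H2-D1), against 2.01% of all genes. The mean was highest at 10% RPS for 9 of the 10 genes and at 5% RPS for Psmb10. The share of all genes with this pattern was not counted. In these 9 genes mouse RS10_725 was the highest of all mice. Without it the 10% RPS means of Tap2, Psmb9 and Nlrc5 were 41.4, 15.5 and 5.79 CPM. These lay below 42.7 CPM at 0% RPS, 16.1 CPM at 2% RPS and 5.93 CPM at 5% RPS, respectively. The other genes of the 9 stayed highest at 10% RPS. When each gene's diets were put in order of their means, the ranges of neighbouring diets overlapped in all 30 pairs. This order sets the closest diets side by side, which favours overlap, so the count cannot show how large the steps are. For Psmb8 the 0% and 2% RPS mice, which were not neighbours in this order, did not overlap. The share of overlapping pairs over all genes was not counted.

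**Figure D2:**
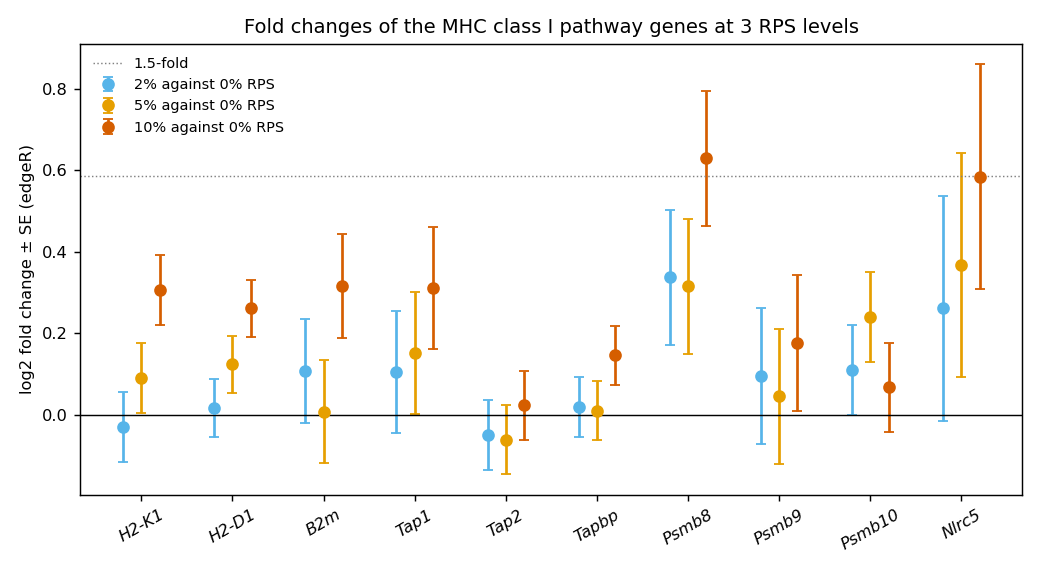
log2 fold change (log2FC) of each gene at 2, 5 and 10% RPS against 0% RPS (points) with the SE from edgeR (bars, 5 mice per diet), and a dotted line at 1.5-fold. At 10% RPS all 10 points lie above 0 and only Psmb8 lies above the dotted line.

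H2-K1 and H2-D1 encode the classical heavy chains, the part of the molecule that binds the peptide. In the 0% RPS mice H2-K1 measured 567, 588, 641, 658 and 685 CPM, and in the 10% RPS mice 704.3, 713, 786, 788 and 888 CPM. All 5 mice at 10% RPS were above all 5 controls. The 2% RPS mice lay at 531 to 677 CPM and the 5% RPS mice at 586 to 732 CPM, each overlapping the controls. The log2FC at 10% RPS was 0.31 ± 0.09 (SE, edgeR adjusted p = 0.103, DESeq2 adjusted p = 0.0257), below the fold threshold, and the slope was 0.03 per percent RPS (edgeR adjusted p = 0.0300).

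H2-D1 measured 471, 471, 490, 501 and 524 CPM at 0% RPS and 539, 568, 576, 624 and 635 CPM at 10% RPS, again with no overlap. The 2% RPS mice, at 489 to 512 CPM, had a coefficient of variation of 2.02% against 4.50% in the controls. The 5% RPS mice were spread over 468 to 596 CPM. The log2FC at 10% RPS was 0.26 ± 0.07 (SE, edgeR adjusted p = 0.0969, DESeq2 adjusted p = 0.0118), and the slope was 0.03 per percent RPS (edgeR adjusted p = 0.0269). Some reads of these genes cannot be placed with certainty. Of the 50-base windows of the H2-K1 transcript 8.79% also occur in another gene, and of those of H2-D1 14.2%, of which 109 windows are shared between the pair.

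H2-K1, H2-D1 and Psmb8 were the genes whose 10% RPS mice all lay above all controls. They were 3 of 10 genes, against 1.13% of all tested genes. Leaving out mouse RS10_725 cannot change this count for them, because it was the highest of all mice in each of the 3. At 5% RPS this held for 0 of the 10 (0.464% of all genes), and at 2% RPS for 1, Psmb8 (0.112% of all genes).

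B2m encodes the light chain that every class I heavy chain needs. It measured 252.4, 282, 306, 326 and 425 CPM at 0% RPS and 343, 368, 384, 384 and 502 CPM at 10% RPS. The groups overlapped through a control mouse at 425 CPM, RS10_703. The log2FC was 0.32 ± 0.13 (SE, edgeR adjusted p = 0.242), close in size to those of H2-K1 and H2-D1 but with a wider error, since the coefficient of variation of B2m among the controls was 20.6% against 7.86% for H2-K1 and 4.50% for H2-D1. The other heavy chain and class I-like genes were a list of 17, of which 15 were tested. They had 0 genes with a trend in edgeR and 2 with an unadjusted trend p under 0.05, against 19.1% of all tested genes. Their median log2FC was 0.05 at 10% RPS. Among them H2-Q2, a Qa region gene, was the 1 with a trend in DESeq2 (edgeR adjusted p = 0.0687), where 3.44% of all genes rose. H2-Q2 averaged 37.5 ± 4.87 CPM in the controls and 47.1 ± 6.77 CPM in the 10% RPS mice (SD, n = 5). H2-T23, which encodes the nonclassical molecule Qa-1, had a negative log2FC of -0.24 (edgeR adjusted p = 0.318), averaging 135 ± 24.9 CPM in the controls and 114 ± 14.8 CPM in the 10% RPS mice. H2-M3, which presents formylated peptides, had a log2FC of -0.04.

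The transporter and its partner tapasin were examined next. Tap1 measured 17.9, 18.9, 23.5, 26.7 and 31.3 CPM at 0% RPS and 23.8, 25.8, 26.9, 33.2 and 37.1 CPM at 10% RPS, with overlapping groups and a log2FC of 0.31 ± 0.15 (SE, edgeR adjusted p = 0.326). Tap2, the partner of Tap1 in the same transporter, measured 37.3, 41.9, 43.3, 44.1 and 47.0 CPM at 0% RPS and 38.7, 38.7, 41.9, 46.3 and 51.4 CPM at 10% RPS. Its log2FC was 0.02 ± 0.09 (SE, edgeR adjusted p = 0.929). Whether Tap1 and Tap2 differ in their response was not tested. Tapbp lay at 180 to 200 CPM at 0% RPS and at 190 to 251.6 CPM at 10% RPS, with a log2FC of 0.15 ± 0.07 (SE, edgeR adjusted p = 0.343). The mice at 10% RPS other than RS10_725 held at most 209 CPM of Tapbp.

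Of 12 fixed genes for peptide loading and trimming, all tested, 2 rose with RPS by the trend, against 1.15% of all genes. In this list 0 fell, and the median log2FC at 10% RPS was 0.17. The genes that rose were Pdia3, the oxidoreductase bound to tapasin, and Uggt1, which checks the folding of glycoproteins. Pdia3 averaged 470 ± 35.3 CPM in the controls and 603 ± 87.4 CPM in the 10% RPS mice (SD, n = 5, edgeR adjusted p of the trend = 0.0425), and Uggt1 from 91.8 ± 10.7 to 116 ± 12.6 CPM (edgeR adjusted p = 0.0469). Both also act on other secretory proteins. The chaperones Calr (edgeR adjusted p of the trend = 0.0772) and Canx (0.0950) did not pass in edgeR. DESeq2 passed them too, which made 4 of 12, against 3.44% of all genes rising in DESeq2. Erap1, the peptidase that trims peptides in the endoplasmic reticulum, averaged 49.7 ± 3.66 CPM in the controls and 57.1 ± 4.18 CPM in the 10% RPS mice (edgeR adjusted p of the trend = 0.196), and Tapbpl, a second peptide editor, had a log2FC of 0.01.

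Psmb8 and Nlrc5 had the highest point estimates of the 10 genes at 10% RPS, and these did not differ beyond their errors. Psmb8 encodes the inducible subunit that takes the place of Psmb5. It measured 17.9, 20.7, 22.4, 24.4 and 26.2 CPM at 0% RPS and 26.6, 30.7, 32.6, 36.1 and 46.5 CPM at 10% RPS. The 5 mice at 10% RPS were all above the controls, the lowest of them by less than 1 CPM. At 2% RPS the mice sat close together at 27.6 to 29.9 CPM, also all above the controls, while at 5% RPS they were spread over 19.2 to 40.9 CPM. The log2FC was 0.63 ± 0.17 at 10% RPS (SE, edgeR adjusted p = 0.0939, DESeq2 adjusted p = 0.0154), 0.31 ± 0.16 at 5% RPS and 0.34 ± 0.16 at 2% RPS (edgeR adjusted p = 0.582 and 0.9997). The slope was 0.05 per percent RPS (edgeR adjusted p = 0.0642, DESeq2 adjusted p = 0.0175). Without mouse RS10_727, the lowest at 10% RPS, edgeR called Psmb8 as well (log2 fold change 0.72, adjusted p = 0.0358), in a fit that called 188 genes in all against 7 with every mouse.

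The other inducible subunits were not called by edgeR or DESeq2, and the differences between subunits were not tested. Psmb9, which takes the place of Psmb6, lay at 12.6 to 17.97 CPM at 0% RPS and at 14.1 to 22.8 CPM at 10% RPS, with a log2FC of 0.18 ± 0.17 (SE, edgeR adjusted p = 0.661). Psmb10, which takes the place of Psmb7, lay at 71.8 to 85.4 CPM at 0% RPS and at 74.2 to 88.4 CPM at 10% RPS, with a log2FC of 0.07 ± 0.11 (edgeR adjusted p = 0.824). Its highest values were in the 5% RPS group, 122 CPM in mouse RS10_719 and 104 CPM in RS10_717, and the log2FC there was 0.24 ± 0.11 (edgeR adjusted p = 0.523).

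The ratio of each inducible subunit to the constitutive subunit it replaces was compared by exact two-sided permutation tests of 5 against 5 mice, whose smallest possible p is 0.0079, with adjustment over the 9 tests. The log2 ratio of Psmb8 to Psmb5 was -1.72 ± 0.29 at 0% RPS and -1.17 ± 0.35 at 10% RPS (SD, n = 5), a difference of 0.56 (exact p = 0.0159, adjusted p = 0.143). In 4 of the 5 mice at 10% RPS the ratio was above that of every control. The difference was 0.21 at 5% RPS and 0.32 at 2% RPS (exact p = 0.365 and 0.0556). The ratio of Psmb9 to Psmb6 differed by 0.20 at 10% RPS (exact p = 0.437) and that of Psmb10 to Psmb7 by 0.02 (exact p = 0.849). None of the 9 differences passed after adjustment. The constitutive subunits themselves had log2 fold changes at 10% RPS of 0.05 for Psmb5, -0.05 for Psmb6 and 0.05 for Psmb7. Of the 14 standard subunits of the 20S core 0 had a trend in edgeR, 1 had an unadjusted p under 0.05 and 1, Psma1, had a trend in DESeq2, with a median log2FC of 0.07. The 5 genes for regulators and assembly of the proteasome gave 0, 3 and 1 (Psme4) in these counts, with a median of 0.19. Over all tested genes 19.1% had an unadjusted trend p under 0.05, and 3.44% rose in DESeq2. Psme2, a subunit of the inducible PA28 activator, averaged 38.0 ± 3.81 CPM in the controls and 46.3 ± 5.12 CPM in the 10% RPS mice (SD, n = 5, edgeR adjusted p of the trend = 0.144), while its partner Psme1 had a log2FC of -0.01.

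Nlrc5 was the gene with the lowest level and a wide spread in every diet. It measured 3.39, 3.77, 3.85, 4.76 and 7.25 CPM at 0% RPS and 4.79, 5.46, 5.65, 7.26 and 11.2 CPM at 10% RPS. The groups overlapped through 1 control mouse, RS10_703, and mouse RS10_725 stood highest at 10% RPS. The log2FC was 0.58 ± 0.28 (SE, edgeR adjusted p = 0.321). Without RS10_725 it was 0.34 (edgeR adjusted p = 0.619), and without RS10_703 it was 0.82 (edgeR adjusted p = 0.122), above the 0.70 of Psmb8 in that fit.

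**Figure D3:**
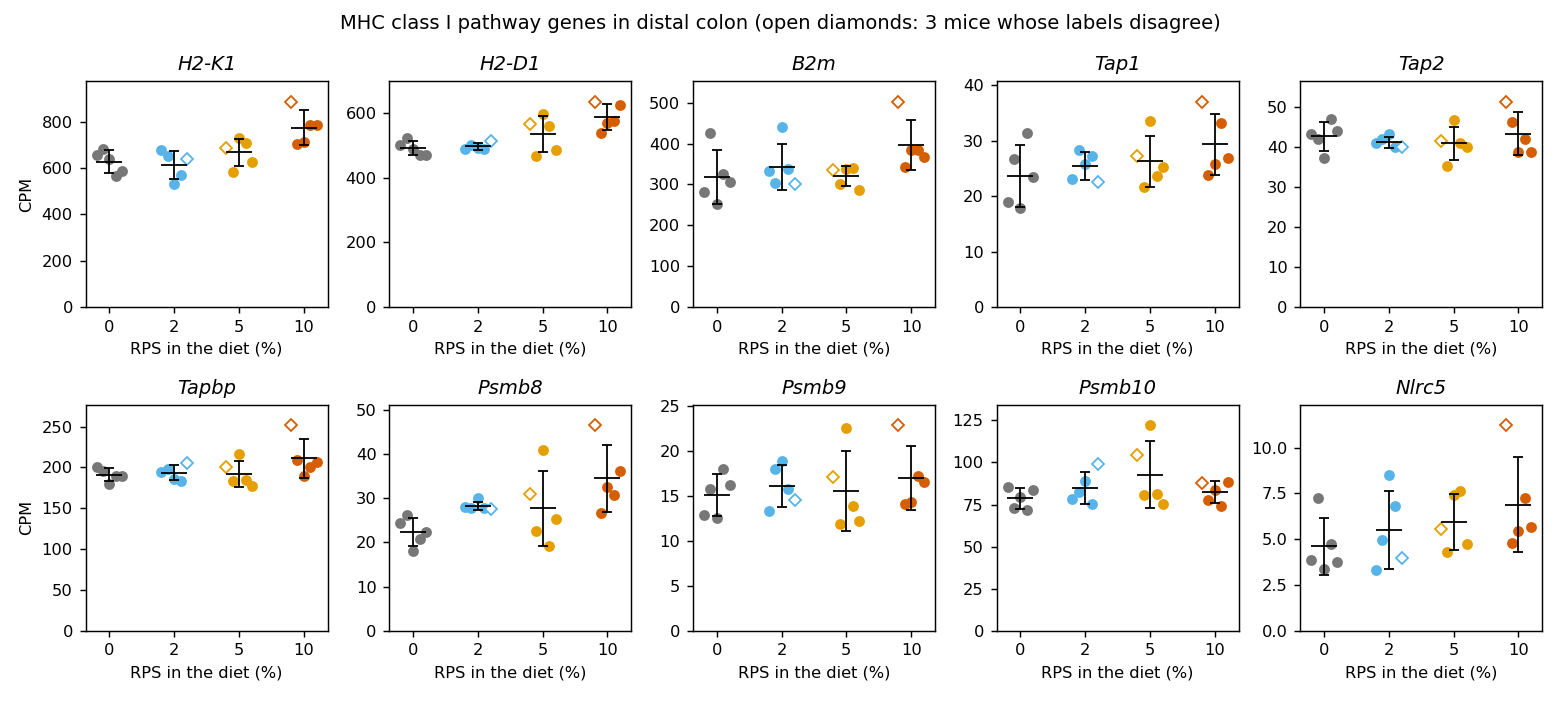
CPM of each of the 10 genes (vertical axes from 0) in every mouse by diet (horizontal axis, percent RPS), with the mean and SD of 5 mice in black; open diamonds are the 3 mice with disagreeing labels. H2-K1, H2-D1 and Psmb8 have all 5 mice at 10% RPS above the controls, and the open diamond at 10% RPS is the highest mouse in 9 of the 10 panels.

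Mouse RS10_725, described as 10% RPS and labelled 5% by treatment, was the highest of all 20 mice in 9 of the 10 genes, all but Psmb10. Mouse RS10_719 (5% RPS) was among the 3 highest in 7 genes. Mice RS10_704 (0% RPS) and RS10_718 (5% RPS) were each the lowest of all mice in 3 genes. RS10_707 (0% RPS), RS10_709 and RS10_715 (2% RPS) and RS10_724 (5% RPS) were each lowest in 1. Without RS10_725 the log2 fold changes at 10% RPS were positive for 9 of the 10 genes with a median of 0.22. They were 0.25 for H2-K1, 0.23 for H2-D1, 0.22 for B2m, 0.21 for Tap1 and 0.50 for Psmb8, while Psmb9 went to 0.05, Tapbp to 0.08 and Tap2 to -0.05. The trends of H2-K1 (adjusted p = 0.0746) and H2-D1 (adjusted p = 0.0628) then no longer passed. Under the treatment label 9 of the 10 were positive with a median of 0.16, and the trends of H2-K1 (edgeR adjusted p = 0.285) and H2-D1 (0.264) did not pass. Under that label edgeR found 0 trend genes among all genes tested. The trend of both genes was also lost without RS10_708 (edgeR adjusted p = 0.062 for H2-K1 and 0.0572 for H2-D1), RS10_731 (0.0658 and 0.0507) or RS10_784 (0.09 and 0.0918), and that of H2-K1 without RS10_707 (0.0503). The trend of Psmb8 passed without RS10_703 (edgeR adjusted p = 0.0495), RS10_719 (0.0491), RS10_721 (0.0382) or RS10_727 (0.0237). Whether the trends of H2-K1 and H2-D1 passed therefore rested on the description label and on single mice. With each mouse left out, the slope ranged from 0.0277 to 0.0373 for H2-K1 and from 0.0245 to 0.0311 for H2-D1. Under the treatment label it was 0.0241 and 0.0204. Over all genes tested, 375 had a trend with every mouse. Without RS10_708, RS10_725, RS10_731 or RS10_784 the number was 109, 202, 139 or 24, and without RS10_707 it was 244.

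**Figure D4:**
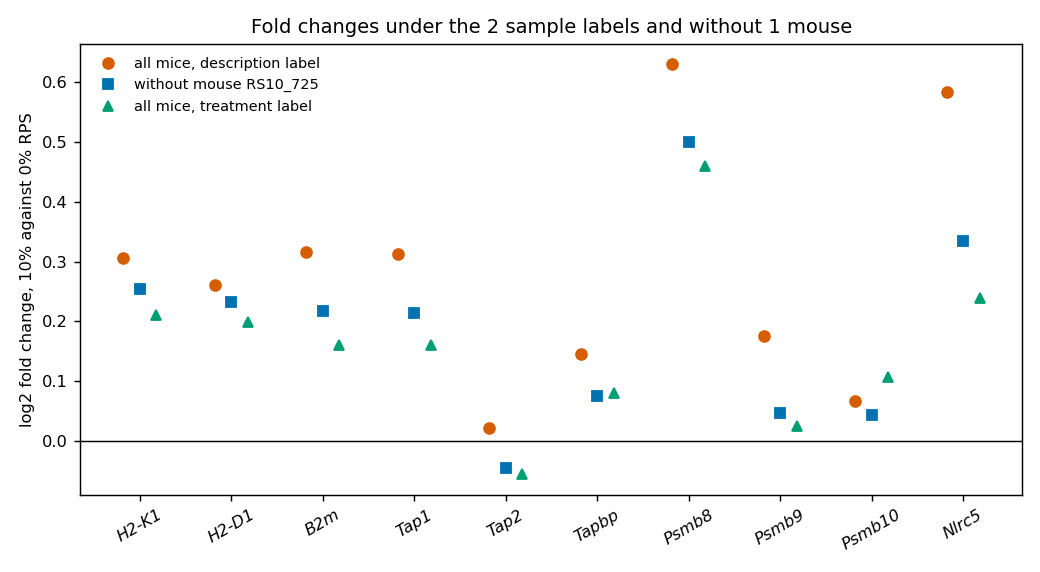
log2FC of each gene at 10% against 0% RPS with the diets of the description label (circles), without mouse RS10_725 (squares) and with the diets of the treatment label (triangles). Tap2 changes sign, and the other 9 genes stay above 0 in all 3 settings.

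Regulators of the pathway were counted from a fixed list of 24 genes, of which 23 were tested. The trend rose for 2, Irf1 and Irf7, and fell for 0 in edgeR, where 1.15% of all genes rose. An unadjusted p under 0.05 was reached by 10, against 3420 of the 17893 tested genes. In DESeq2 5 rose (Irf8 among them), against 3.44% of all genes, and the median edgeR log2FC at 10% RPS was 0.02. Irf1, an interferon-induced factor that acts on class I and immunoproteasome genes, averaged 134 ± 16.2 CPM in the controls and 209 ± 25.4 CPM in the 10% RPS mice (SD, n = 5), and its log2FC was 0.64 (edgeR adjusted p = 0.00929). It was the 1 gene of the list called by edgeR at 10% RPS. Irf7, a factor of the type I interferon response, went from 45.8 ± 6.97 to 59.4 ± 5.23 CPM (edgeR adjusted p of the trend = 0.0489). Ciita, the class II counterpart of Nlrc5, had a log2FC of 0.51 (edgeR adjusted p = 0.373). Ifng, the gene of interferon gamma, had means of 0.00738 to 0.0307 CPM over the 4 diets, too low to be tested. Class II genes, listed for contrast, had 0 of 10 with a trend in edgeR, 0 with an unadjusted p under 0.05, 0 with a trend in DESeq2 and a median log2FC of 0.09. The interferon gamma responsive GTPase and guanylate-binding genes had 0 of 14 tested with a trend in edgeR, 4 with an unadjusted p under 0.05 and a median of 0.34, and among them Irgm2 was the 1 with a trend in DESeq2 (edgeR adjusted p of the trend = 0.0745).

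How the class I genes varied together was measured by correlations of log2 CPM across the 20 mice, in 29 relations (Nlrc5 with the other 9 genes, and Irf1 and the leukocyte gene Ptprc with all 10), with permutation p-values adjusted over the 39 relations that were computed. Of the 29, 12 passed at 0.05. Nlrc5 followed B2m most closely (r = 0.83, rho = 0.80, adjusted permutation p = 0.000195 for r). This r was 0.71 without the 2 mice farthest from the median of Nlrc5 and 0.85 for deviations from the diet means. With Tap1, Nlrc5 had r = 0.73 (rho = 0.72, adjusted permutation p = 0.00143), or 0.69 without the 2 mice and 0.67 within diets. With H2-K1 it had r = 0.39 (rho = 0.42, adjusted permutation p = 0.115) and with Psmb10 r = 0.16.

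Over all values, Irf1 had its highest r with the heavy chains and Psmb8. Its r was 0.86 with H2-D1 (rho = 0.81, adjusted permutation p = 0.000195), 0.75 with H2-K1 (rho = 0.78, adjusted permutation p = 0.00143) and 0.73 with Psmb8 (rho = 0.68, adjusted permutation p = 0.00143). Without the 2 mice farthest from the median of Irf1 these were 0.78, 0.66 and 0.64, and within diets 0.61, 0.41 and 0.58. With B2m and Tap1 Irf1 had r = 0.44 and 0.40, and within diets 0.09 and 0.07. Within diets its r with Psmb10 was 0.48, above that with H2-K1. The differences between these correlations were not tested.

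**Figure D5:**
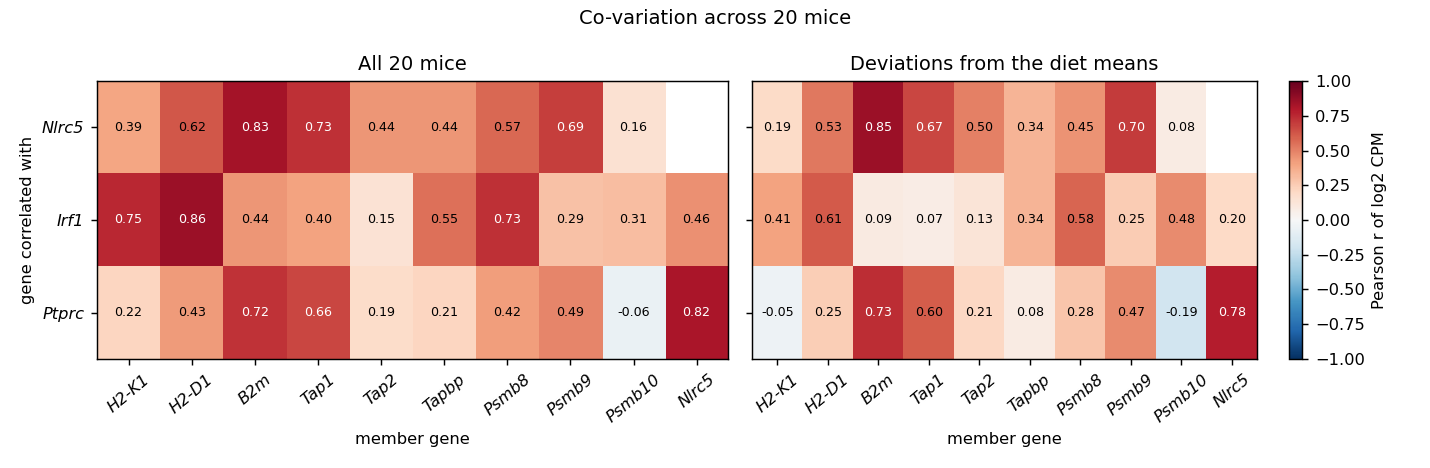
Pearson r of log2 CPM between Nlrc5, Irf1 or Ptprc (rows) and each of the 10 genes (columns) over 20 mice, on the left for all values and on the right for deviations from the diet means. On the left, Nlrc5 and Ptprc are highest with B2m, Tap1 and each other, and Irf1 with H2-K1, H2-D1 and Psmb8.

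Ptprc, the pan-leukocyte gene CD45, had r = 0.82 with Nlrc5 (rho = 0.79, adjusted permutation p = 0.00039), 0.72 with B2m (rho = 0.71, adjusted permutation p = 0.00217) and 0.66 with Tap1 (rho = 0.67, adjusted permutation p = 0.00581). These were 0.78, 0.66 and 0.58 without the 2 mice farthest from its median (RS10_704 and RS10_708), and 0.78, 0.73 and 0.60 within diets. With H2-K1 the r of Ptprc was 0.22. Across diets, the summed level of 5 leukocyte markers was 83.0 to 166 CPM in the controls and 117 to 167 CPM in the 10% RPS mice, and that of 9 T and NK cell markers 10.5 to 19.9 and 11.02 to 19.2 CPM. The 6 B and plasma cell markers summed to 76.3 to 707.03 CPM in the controls and 369 to 789 CPM in the 10% RPS mice, with the highest sum in mouse RS10_725. The 9 macrophage and dendritic cell markers summed to 234 to 428 and 226 to 313 CPM. The 7 epithelial markers summed to 8320 to 11345 CPM in the controls and 9898 to 13029 CPM in the 10% RPS mice, and Epcam had a log2FC of 0.05. Of these 7, Krt20, a keratin of mature surface cells, rose by the trend, from 566 ± 226 to 1060 ± 199 CPM (SD, n = 5, edgeR adjusted p = 0.0249). DESeq2 passed 2 of the 7, Krt20 and the intestinal transcription factor gene Cdx2. Over all genes 1.15% rose by the trend in edgeR and 3.44% in DESeq2. Cdx2 averaged 11.5 ± 7.13 CPM in the controls and 31.3 ± 7.98 CPM in the 10% RPS mice (edgeR adjusted p of the trend = 0.122, DESeq2 adjusted p = 0.0317). Of the 7 distal colon markers Car4 rose (edgeR adjusted p = 0.00214) and Hoxb13 fell (0.0425). Of the 42 tested leukocyte, T cell, B cell, macrophage, muscle, endothelial and fibroblast markers 0 passed the trend test of edgeR. An unadjusted p under 0.05 was reached by 8, against 19.1% of all tested genes. DESeq2 passed 2, the falling genes Cd68 of macrophages and Emcn of endothelium. The median log2FC at 10% RPS was 0.34 for leukocyte markers, 0.55 for B and plasma cells and 0.24 for epithelium. All genes of these lists were positive, and the median of the 10 class I genes was 0.28. It was -0.09 for T and NK cells, -0.25 for macrophages and dendritic cells, -0.06 for muscle, -0.13 for endothelium and 0.02 for fibroblasts. No list had a gene at 0 in all mice, though Cd8b1 and Gzmb stayed under 1 CPM in every mouse and Cd8a averaged 0.728 CPM at 0% RPS and 0.585 CPM at 10% RPS. The part of these cell types in the class I values was not tested.

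The position of the genes in the major histocompatibility region was set beside their neighbours. Between the start of Tapbp and the end of H2-D1, a stretch of 1.35 Mb, 97 genes were tested, of which 7 were members. Among the 90 others 0 rose and 3 fell by the trend, their median log2FC at 10% RPS was -0.07, and 34 were positive. Over all tested genes 1.15% rose, 375 of 17893 had a trend in either direction, and 46.8% were positive at 10% RPS. The median of the 7 members was 0.26. The genes that fell were Abhd16a, Ly6g6e and Cfb. The 5 genes most like the mean profile of the 10 members across the 20 mice were Gbp2 (r = 0.85), Iglc2 (0.84), H2-Q6 (0.82), Irgm1 (0.82) and Ifi47 (0.81). Gbp2, Irgm1 and Ifi47 encode interferon-induced GTPases, H2-Q6 a nonclassical class I heavy chain with sequence shared with H2-K1 and H2-D1, and Iglc2 an immunoglobulin light chain constant region. Their adjusted edgeR p for the trend lay between 0.136 and 0.340. The mean profile was highest in mouse RS10_725 (0.48, as centred log2 CPM) and next in RS10_719 (0.31). These r were not repeated without those mice or within diets.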

How the data were processed

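Polyadenylated RNA of 20 distal colon samples was sequenced from stranded libraries. The authors trimmed bases of low quality, discarded ambiguous reads, mapped to GRCm39 in CLC Genomics Workbench and deposited raw counts per gene and mouse. The annotation release, the strand setting and the treatment of multiply matching reads were not given in the sources used here. Every member overlaps at least 1 other annotated gene, so reads of overlapping genes may not be told apart. Identifiers were matched to GENCODE vM39 (26338 of 26619). The total was 18.4 to 35.0 M counts per mouse, and 3 counts correspond to 0.0858 to 0.163 CPM.

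Counts were analysed in R 4.3.3 with edgeR 4.0.16 (filterByExpr with minimum count 10, TMM, quasi-likelihood F-test with robust dispersion, 1 fit over 4 diets) and Benjamini-Hochberg adjustment over 17893 genes. A call needed an adjusted p of at most 0.05 and a fold change of at least 1.5, except in the trend and any-diet tests. The log2 CPM used a prior count of 2. DESeq2 1.42.0 and limma 3.58.1 (voom) served as alternatives, with RLE scaling, no filter, other labels, the 3 mice with disagreeing labels left out and each mouse left out. Subunit ratios were tested by exact permutation and correlations by 100000 permutations.

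Groups came from the description label. Nothing states whether mice shared cages or litters, so p-values measure the spread between these mice. Within diets 40 pairs of mice were compared, and none looked like 1 library deposited again (chi-square per degree of freedom 9.74 to 67.9). The members, lists and tests were chosen with earlier results of these data known. Genes named beyond the members came from 19 fixed ones (1 of them, with its 10 correlations, is not reported here), up to 3 per pathway list with the smallest trend p and the 5 most like the members. Abhd16a, Ly6g6e and Cfb fall outside this rule and were named after their values were seen.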

Additional observations from a re-analysis of the deposited data

Results flagged for a closer look

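Within each diet, 10 genes and 3 subunit ratios were examined for a single mouse far from the other 4, which gave 52 groups and 3 such mice, where chance gives about 2.60. B2m in mouse RS10_715 (2% RPS) was 440.1 CPM, with the next mouse at 338 CPM. B2m in mouse RS10_725 (10% RPS by its description) was 502.5 CPM, with the next at 384 CPM. Psmb8 in mouse RS10_715 was 29.95 CPM, with the next at 28.1 CPM in a tightly grouped diet.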

How the results depend on the processing

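No paired analysis was possible because each mouse number belongs to 1 animal and the replicate numbers only name mice in accession order. The number of members called at 10% RPS was 0, and 1 with DESeq2. It was 0 to 1 when each mouse was left out. At 5 and 2% RPS it was 0 under every alternative. The number with a trend was 2. It was 0 under the treatment label, 0 without the 3 mice whose labels disagree, and 0 to 3 with each mouse left out. The mice without which it was 0 were RS10_708, RS10_725, RS10_731 and RS10_784, and without RS10_707 it was 1. The number with any diet difference was 0, and 2 with DESeq2. Of 290 repeats of the fold changes at 10% RPS, 284 kept their direction and side of the threshold, and of 270 repeats of the slopes, 248 did. Tap2 reversed at 10% RPS to -0.0548 under the treatment label and -0.0356 without the 3 mice, over a range of -0.0451 to 0.0658 with each mouse left out. Its slope reversed to -0.00389 and -0.00332, over a range of -0.00385 to 0.00719, and the slope of Psmb9 to -0.00106 under the treatment label. Of 117 repeats of the subunit ratios 106 were unchanged in sign and side. The Psmb9 to Psmb6 ratio reversed to -0.0021 at 10% RPS under the treatment label, and with each mouse left out it ranged from -0.105 to 0.187 at 5% RPS and from -0.0594 to 0.206 at 2% RPS. The Psmb10 to Psmb7 ratio at 10% RPS reversed to -0.0314 under the treatment label and -0.0714 without the 3 mice, and ranged from -0.0714 to 0.0714 with each mouse left out. The r of Ptprc with H2-K1 reversed to -0.0475 within diets. The cause of these changes was not tested.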
